A study of Mus musculus with 2 samples.

Results

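The levels of 10 genes of the circadian clock were followed across the cell classes of mouse skin: the output and repressor genes Per1, Per2, Per3, Dbp, Tef, Nr1d1 and Nr1d2, and the activator genes Arntl, Npas2 and Clock. They were chosen by gene symbol, each symbol matched 1 row, and they make up 10 of the 31053 genes counted. Skin of C57Bl6 mice, 8 weeks old and of both sexes, had been injected intradermally with 100 ng of sitagliptin, an inhibitor of the peptidase DPP4, in 100 µl PBS, or with PBS alone. Polyadenylated RNA of single cells was captured on the 10x Genomics Chromium, with 1 library per treatment. The labels name a time of 48 h without making clear from which event it runs, and neither the number of mice per library nor the time of day of sampling was stated in the sources at hand. The deposited name of each library carries a letter that is the initial of the other treatment, so the libraries are called sitagliptin-labelled and PBS-labelled, and every direction below holds for the labels as given.

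In mammalian cells the proteins made from Arntl (BMAL1) and Clock, or its relative Npas2, bind E-box sequences as pairs and switch on the Per and Cry genes, whose products then inhibit that pair. The same pair switches on Nr1d1 and Nr1d2, which encode the REV-ERB repressors of Arntl, Npas2 and Clock, and Dbp and Tef, which encode activators that bind D-box sequences. Outputs and activators therefore peak at opposite times of day in most tissues, epidermis and hair follicle among them, and glucocorticoids can induce Per1 through its own promoter element.

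The 3 promoter sequence elements through which these loops act are shown for the members whose promoter window contains one. RefSeq promoter windows of build GRCm38.p6, each from 250 bases before to 50 bases after a transcript start, were matched by symbol for 9 of the 10 genes, with 14 windows in all. Capitals mark an E-box (CACGTG), a D-box (TTATGTAA or TTATGCAA) or a REV-ERB element (TAGGTCA or TGGGTCA, the site of REV-ERB proteins), searched on both strands with no overlap between them. Windows are written 5′ to 3′ on the gene's own strand.
Per1, chr11:69098699-69098998, plus strand: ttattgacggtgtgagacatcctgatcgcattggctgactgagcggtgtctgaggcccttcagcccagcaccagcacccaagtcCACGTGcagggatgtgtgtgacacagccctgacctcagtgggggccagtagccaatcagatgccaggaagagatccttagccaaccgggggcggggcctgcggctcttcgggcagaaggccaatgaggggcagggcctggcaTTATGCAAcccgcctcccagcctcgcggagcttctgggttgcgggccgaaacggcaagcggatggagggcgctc
Per3, chr4:151044616-151044915, minus strand: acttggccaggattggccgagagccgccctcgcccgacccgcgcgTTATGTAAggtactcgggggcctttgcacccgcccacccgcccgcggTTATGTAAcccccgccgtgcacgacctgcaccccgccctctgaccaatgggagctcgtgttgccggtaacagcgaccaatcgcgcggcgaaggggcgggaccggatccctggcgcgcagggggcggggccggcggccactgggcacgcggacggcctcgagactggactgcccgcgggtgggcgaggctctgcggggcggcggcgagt
Tef, chr15:81802423-81802722, plus strand: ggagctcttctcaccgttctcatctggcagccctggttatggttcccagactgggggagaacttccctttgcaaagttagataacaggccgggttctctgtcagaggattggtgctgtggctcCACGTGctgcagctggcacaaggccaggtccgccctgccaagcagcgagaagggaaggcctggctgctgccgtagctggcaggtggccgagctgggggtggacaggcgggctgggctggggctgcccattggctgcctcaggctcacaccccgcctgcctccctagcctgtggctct
Arntl, chr7:113207261-113207560, plus strand: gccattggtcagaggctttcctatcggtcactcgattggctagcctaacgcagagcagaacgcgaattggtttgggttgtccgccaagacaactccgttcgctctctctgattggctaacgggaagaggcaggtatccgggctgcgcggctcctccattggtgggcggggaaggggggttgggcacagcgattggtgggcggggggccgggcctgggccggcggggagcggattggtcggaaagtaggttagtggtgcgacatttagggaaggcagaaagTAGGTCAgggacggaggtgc
The Per1 window held an E-box starting 166 bases before the start and a D-box 24 bases before it. The Per3 window held 2 D-boxes, at 205 and 158 bases before the start. Both Tef windows held an E-box, at 127 bases before the start in the window printed and at 138 bases in the other, and Arntl held TAGGTCA 30 bases after the start. Of all 32851 mouse windows of this length, 7.15% held the E-box, 1.66% a D-box and 6.45% a REV-ERB element. A match describes the letters only.

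Both libraries were filtered to barcodes with at least 500 genes, at least 1000 UMIs (unique molecular identifiers, each standing for 1 captured RNA molecule) and at most 10% mitochondrial UMIs. This left 18380 of 22085 barcodes of the sitagliptin-labelled library, with 85056939 UMIs and a median of 2197 per cell, and 5932 of 10456 barcodes of the PBS-labelled library, with 57160088 UMIs and a median of 6902.5. The libraries shared 75 barcodes. Keratinocyte-like cells made up 17630 of the retained cells in the sitagliptin-labelled and 3814 in the PBS-labelled library. In the sitagliptin-labelled library these were 1027 basal-like, 5821 suprabasal-like, 1537 upper follicle-like, 1738 outer root sheath or bulge-like and 1444 dividing cells. In the PBS-labelled library they were 859 basal-like, 995 suprabasal-like, 754 upper follicle-like, 290 outer root sheath or bulge-like and 892 dividing cells. A further 6063 sitagliptin-labelled cells and 24 PBS-labelled cells were keratinocyte-like cells of no finer class, most of them in a cluster led by Malat1. Different clusters held most suprabasal-like cells in the libraries: cluster 1 held 3032 sitagliptin-labelled and 31 PBS-labelled cells, and cluster 3 held 1267 sitagliptin-labelled and 807 PBS-labelled cells. Levels are CPM, UMIs of a gene per 1000000 UMIs of the summed cells. Intervals are exact 95% intervals that cover counting error only, and with 1 library per treatment no test of the treatment is possible and the spread between animals is unknown. Fewer cells of a state and less RNA per cell cannot be told apart within a summed class.

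RNA of other cell types differed between the libraries within the keratinocyte-like cells. The 6 fibroblast markers summed to 16.5 CPM in the sitagliptin-labelled and 43.8 CPM in the PBS-labelled keratinocyte-like cells, and the 7 macrophage or monocyte markers to 5.0 CPM in the sitagliptin-labelled and 79.5 CPM in the PBS-labelled cells. Over the 5 classes the fibroblast sum ran from 1.94 to 18.8 CPM in the sitagliptin-labelled and from 36.5 to 74.2 CPM in the PBS-labelled library, and the macrophage or monocyte sum from 1.61 to 4.83 CPM in the sitagliptin-labelled and from 58.5 to 129 CPM in the PBS-labelled library. Both sums were thus lower in the sitagliptin-labelled library in each class, and no marker of either list was at 0 over all keratinocyte-like cells. As a share of their level in fibroblast-like cells of the same library, the fibroblast markers were at 0.169% in the sitagliptin-labelled and 0.139% in the PBS-labelled keratinocyte-like cells. As a share of their level in myeloid cells, the macrophage or monocyte markers were at 0.784% in the sitagliptin-labelled and 0.83% in the PBS-labelled cells. These shares were thus close over all keratinocyte-like cells, but both were lower in the sitagliptin-labelled library in each class. The fibroblast share in dividing cells was 0.0199% in the sitagliptin-labelled and 0.116% in the PBS-labelled library. In outer root sheath or bulge-like cells the macrophage or monocyte share was 0.373% in the sitagliptin-labelled and 1.35% in the PBS-labelled library. Myeloid cells themselves had these markers at 638 CPM in the sitagliptin-labelled and 9576 CPM in the PBS-labelled library. The 5 skeletal muscle markers summed to 8.11 CPM in the sitagliptin-labelled and 44.0 CPM in the PBS-labelled keratinocyte-like cells. The 6 dendritic or Langerhans markers summed to 55.9 CPM in the sitagliptin-labelled and 63.5 CPM in the PBS-labelled cells. As shares, these other lists went the other way. The skeletal muscle share was 0.305% in the sitagliptin-labelled and 0.143% in the PBS-labelled library, but the sitagliptin-labelled library had 1 muscle cell. Relative to myeloid cells, the dendritic or Langerhans share was 2.10% in the sitagliptin-labelled and 0.935% in the PBS-labelled library. The part of such RNA in the clock gene values was not tested.

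Over all keratinocyte-like cells, the output genes together were at nearly the same level in the libraries and the activators were slightly higher in the sitagliptin-labelled one. The 7 output genes summed to 99.4 CPM in the sitagliptin-labelled and 100.4 CPM in the PBS-labelled cells, a ratio of 0.989 (95% interval 0.953 to 1.03). The 3 activators summed to 115 CPM in the sitagliptin-labelled and 105 CPM in the PBS-labelled cells, a ratio of 1.09 (1.05 to 1.13). The number of output UMIs per activator UMI needs no library total, and it was 0.863 in the sitagliptin-labelled and 0.952 in the PBS-labelled cells, a ratio of 0.906 (log-normal interval 0.861 to 0.954). Of the 10 members, none was at least 1.5-fold higher and 1, Per2, was at least 1.5-fold lower in the sitagliptin-labelled cells, where 8.39% of the genes with at least 20 UMIs were higher and 6.02% lower by that rule. Few clock genes were past 1.5-fold, so the outputs are set against the activators below.

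Within each of the 5 classes the output ratio was below the pooled one, from 0.854 to 0.977, and the activator ratio ran from 1.02 to 1.21. In basal-like cells the outputs summed to 83.0 CPM in the sitagliptin-labelled and 89.9 CPM in the PBS-labelled library, and the activators to 134 CPM in the sitagliptin-labelled and 121 CPM in the PBS-labelled library, so that output per activator was 0.831 times the PBS-labelled value (0.707 to 0.976). In suprabasal-like cells output per activator was 0.850 in the sitagliptin-labelled and 1.14 in the PBS-labelled library, a ratio of 0.743 (0.676 to 0.817). In upper follicle-like cells it was 0.854 in the sitagliptin-labelled and 1.15 in the PBS-labelled library, a ratio of 0.740 (0.648 to 0.845). These 3 intervals lay below 1. In outer root sheath or bulge-like cells output per activator was 1.58 in the sitagliptin-labelled and 1.90 in the PBS-labelled library, and in dividing cells 0.652 in the sitagliptin-labelled and 0.718 in the PBS-labelled library. The ratio was 0.833 (0.686 to 1.01) in outer root sheath or bulge-like and 0.909 (0.821 to 1.01) in dividing cells, with intervals that included 1. With cells of at most 5% mitochondrial UMIs the dividing class had a ratio of 1.21, on the other side of 1, whereas the ratios of the other 4 classes stayed below 1 under each alternative in which the class could be had. The alternative that changes only the total behind CPM cannot move this ratio.

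**Figure D1:**
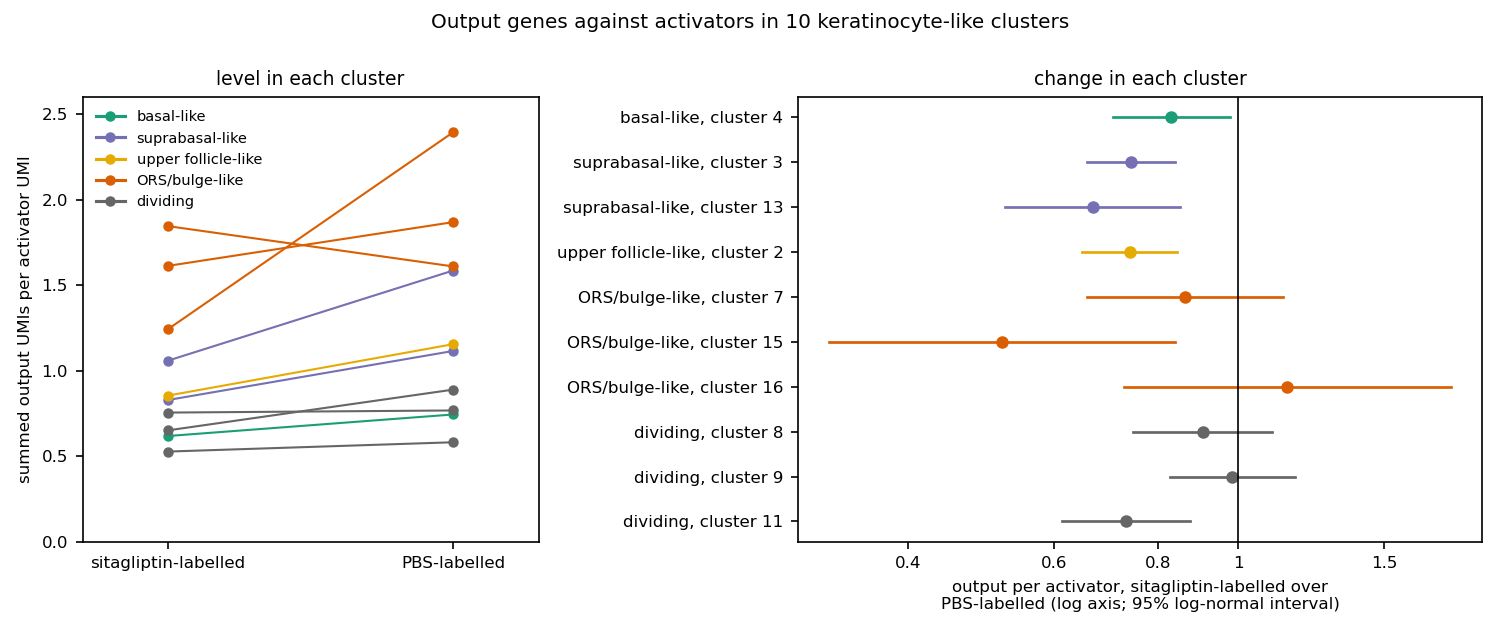
Summed output UMIs per summed activator UMI in the 10 keratinocyte-like clusters with at least 50 cells in each library (left, sitagliptin-labelled beside PBS-labelled, lines join the same cluster) and its ratio between the libraries with 95% log-normal intervals that cover counting error only (right, log axis). The ratio is below 1 in 9 of the 10 clusters, from 0.519 to 1.15.

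Each cluster was also taken on its own, since classes mix clusters that the libraries fill unequally. In 10 keratinocyte-like clusters with at least 50 cells in each library, output per activator was lower in the sitagliptin-labelled cells in 9, and the interval lay below 1 in 6. The geometric mean of the 10 ratios was 0.796, made up of 0.88 for the outputs and 1.11 for the activators. The exception was cluster 16, an outer root sheath or bulge-like cluster led by Aspn, at 1.85 output UMIs per activator UMI in the sitagliptin-labelled and 1.61 in the PBS-labelled cells. Its ratio was 1.15 (0.728 to 1.80), with 266 sitagliptin-labelled and 74 PBS-labelled cells.

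**Figure D2:**
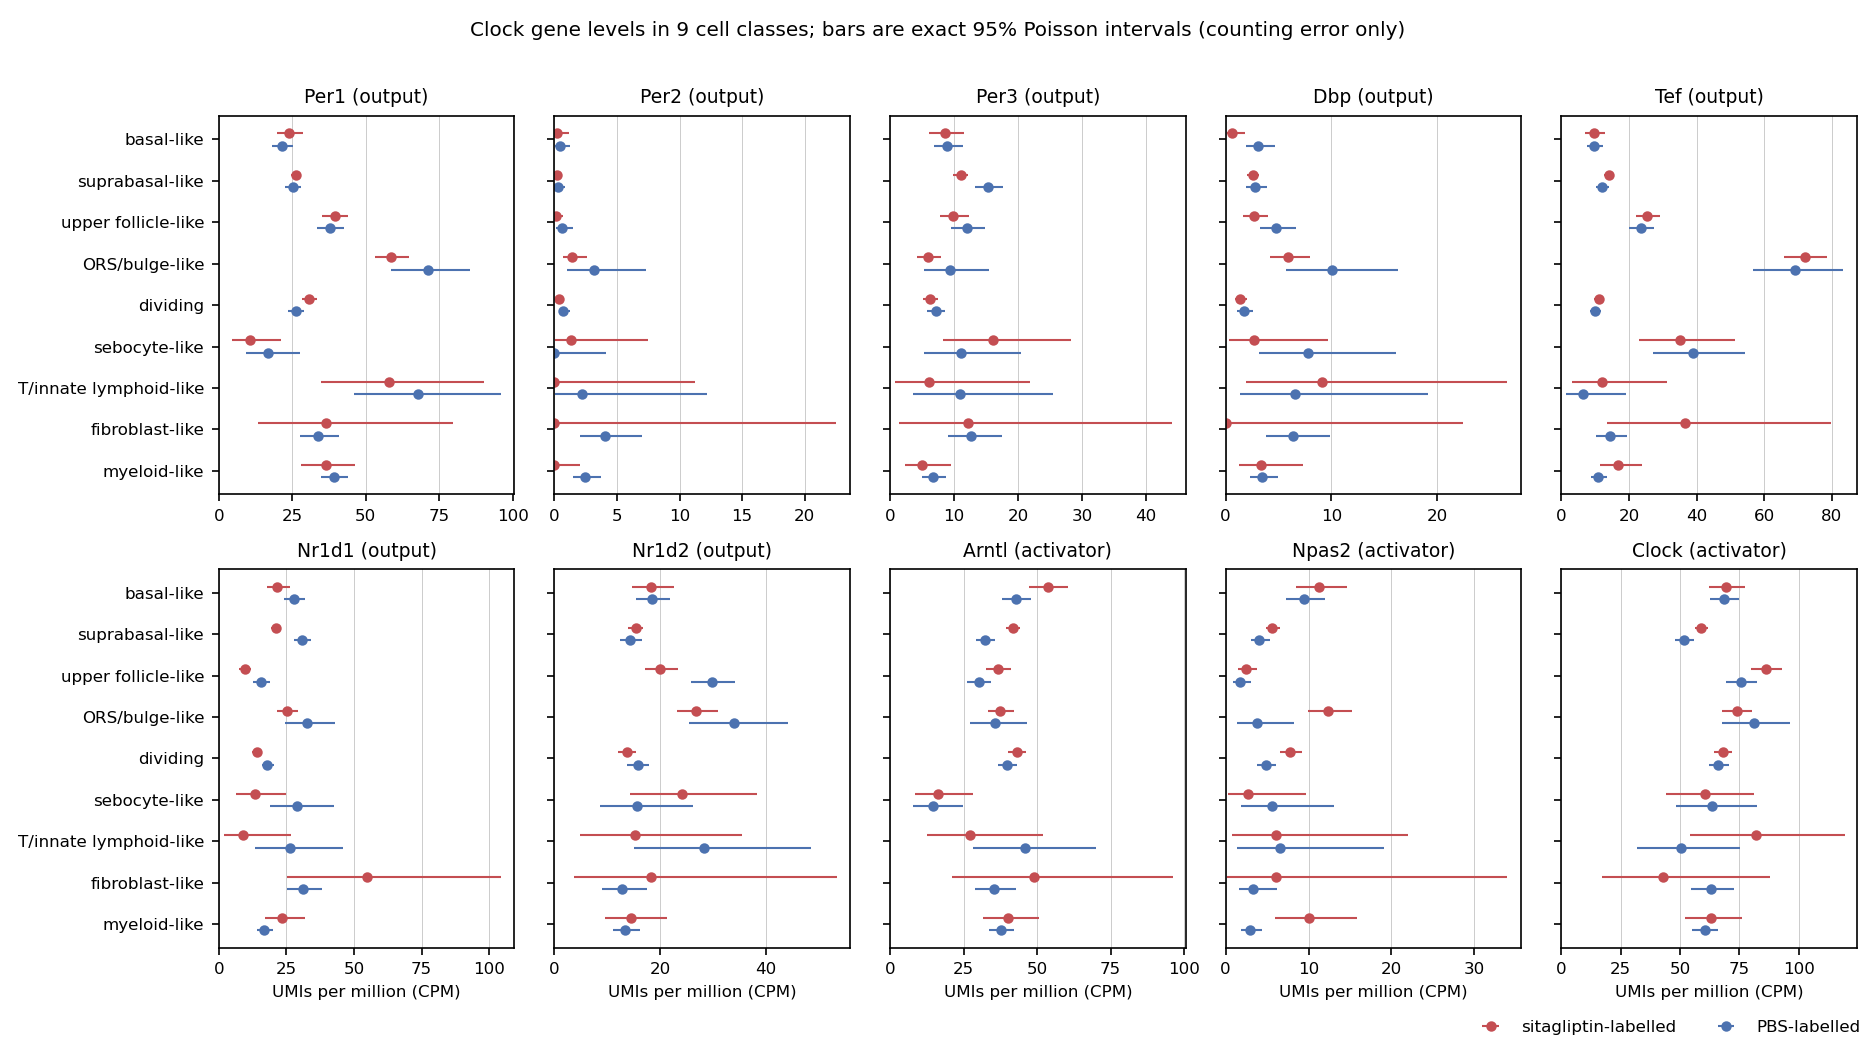
CPM of each clock gene in 9 cell classes (rows), with the sitagliptin-labelled library (red) above the PBS-labelled library (blue) and exact 95% Poisson intervals that cover counting error only. Tef and Per1 are highest among the keratinocyte-like classes in outer root sheath or bulge-like cells in both libraries, and Nr1d1 lies further left in red than in blue in the 5 keratinocyte-like, the sebocyte-like and the T or innate lymphoid-like classes but further right in fibroblast-like and myeloid cells.

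Among the output genes, the REV-ERB gene Nr1d1 was lower in the sitagliptin-labelled library in each of the 5 keratinocyte-like classes. Nr1d1 (ENSMUSG00000020889, mm10 chr11:98767932-98775333, minus strand) was at 17.8 CPM in sitagliptin-labelled and 23.5 CPM in PBS-labelled keratinocyte-like cells, a ratio of 0.759 (0.700 to 0.824). In the sitagliptin-labelled library it was at 21.7 CPM in basal-like, 21.0 CPM in suprabasal-like and 9.55 CPM in upper follicle-like cells, against 27.8 CPM in basal-like, 30.8 CPM in suprabasal-like and 15.6 CPM in upper follicle-like cells of the PBS-labelled library. The sitagliptin-labelled library was thus the lower in all 3 classes, and of these ratios only the upper follicle-like one of 0.611 (0.452 to 0.824) was past 1.5-fold. Outer root sheath or bulge-like cells had 25.2 CPM in the sitagliptin-labelled and 32.7 CPM in the PBS-labelled library, and dividing cells 14.1 CPM in the sitagliptin-labelled and 17.9 CPM in the PBS-labelled library. The ratio lay below 1 in 10 of 10 clusters, from 0.419 to 0.834, with the interval below 1 in 6. Outside these classes the direction was not the same throughout, and counts were few. Nr1d1 was higher in sitagliptin-labelled fibroblast-like cells, with 9 UMIs (54.9 CPM) in the sitagliptin-labelled and 93 UMIs (31.1 CPM) in the PBS-labelled library, a ratio of 1.77 (0.783 to 3.50). Myeloid cells together had 23.5 CPM in the sitagliptin-labelled and 16.9 CPM in the PBS-labelled library, a ratio of 1.39 (0.959 to 1.98), but the libraries filled different myeloid clusters. In the other direction, sebocyte-like cells had 10 UMIs (13.5 CPM) in the sitagliptin-labelled and 26 UMIs (29.0 CPM) in the PBS-labelled library, and T or innate lymphoid-like cells 3 UMIs in the sitagliptin-labelled and 12 UMIs in the PBS-labelled library. The myeloid cluster led by Cd207, a gene of Langerhans cells, with 191 of the 237 sitagliptin-labelled and 97 of the 1144 PBS-labelled myeloid cells, had 24.5 CPM in the sitagliptin-labelled and 33.0 CPM in the PBS-labelled library, a ratio of 0.743 (0.486 to 1.13). Nr1d1 shares 263 exonic bases with Thra on the opposite strand, and no source at hand says whether counting used strand, so reads of the pair there cannot be told apart. With cells of at most 5% mitochondrial UMIs the Nr1d1 ratio in dividing cells was 1.07, and it was below 1 in the other 4 classes under each alternative in which the class could be had.

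Nr1d2 (ENSMUSG00000021775, mm10 chr14:18204054-18239127, minus strand), the other REV-ERB gene, was lower in sitagliptin-labelled upper follicle-like cells. It was at 20.1 CPM in sitagliptin-labelled and 29.8 CPM in PBS-labelled upper follicle-like cells, a ratio of 0.673 (0.545 to 0.829) just short of 1.5-fold. In basal-like cells it was at 18.4 CPM in both libraries, and in suprabasal-like cells at 15.3 CPM in the sitagliptin-labelled and 14.4 CPM in the PBS-labelled library, with a ratio of 0.997 in basal-like and 1.07 in suprabasal-like cells. The Nr1d2 ratio was 0.792 (0.583 to 1.09) in outer root sheath or bulge-like and 0.869 (0.723 to 1.04) in dividing cells. Over all keratinocyte-like cells it was 0.908 (0.832 to 0.992), but 1.11 with each cell thinned to 1000 UMIs. It lay below 1 in 9 of 10 clusters, with the interval below 1 in 1. Whether the upper follicle-like ratio differs from that of the other classes was not tested.

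Of the Period genes, Per3 lay lower in the sitagliptin-labelled cells and Per1 did not. Per3 (ENSMUSG00000028957, mm10 chr4:151003652-151044665, minus strand), whose printed window holds 2 D-boxes, was at 9.11 CPM in sitagliptin-labelled and 10.9 CPM in PBS-labelled keratinocyte-like cells, a ratio of 0.839 (0.746 to 0.944). Suprabasal-like cells had 11.0 CPM in the sitagliptin-labelled and 15.3 CPM in the PBS-labelled library, a ratio of 0.718 (0.60 to 0.86). In each other class the Per3 interval included 1. The Per3 ratio was below 1 in 10 of 10 clusters, from 0.239 to 0.965, with the interval below 1 in 1. The lowest of these rested on 2 UMIs in the sitagliptin-labelled and 3 UMIs in the PBS-labelled library. Per1 (ENSMUSG00000020893, mm10 chr11:69095217-69109960, plus strand) was at 31.7 CPM in sitagliptin-labelled and 28.7 CPM in PBS-labelled keratinocyte-like cells, a ratio of 1.11 (1.03 to 1.19). It was above 1 in 7 of 10 clusters, and 0.967 over all keratinocyte-like cells with each cell thinned to 1000 UMIs. Per2 (ENSMUSG00000055866, mm10 chr1:91415982-91459324, minus strand) was close to the limit of detection, with 30 UMIs (0.370 CPM) in sitagliptin-labelled and 26 UMIs (0.607 CPM) in PBS-labelled keratinocyte-like cells. Its ratio of 0.610 had an interval of 0.349 to 1.07, and with each cell thinned to 1000 UMIs the ratio was 1.08, so no direction can be read for Per2.

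The PAR bZip genes Dbp and Tef, which encode proteins that bind the same D-box, had ratios on opposite sides of 1 over all keratinocyte-like cells. Dbp (ENSMUSG00000059824, mm10 chr7:45705088-45710203, plus strand) had few UMIs: 209 (2.58 CPM) in sitagliptin-labelled and 131 (3.06 CPM) in PBS-labelled keratinocyte-like cells, a ratio of 0.844 (0.675 to 1.06). It was at 3 UMIs in sitagliptin-labelled and 22 UMIs in PBS-labelled basal-like cells, a ratio of 0.202 (0.0388 to 0.673), and at 22 UMIs in sitagliptin-labelled and 33 UMIs in PBS-labelled upper follicle-like cells, a ratio of 0.562 (0.312 to 0.994). Dbp shares 539 exonic bases with Sphk2 on the opposite strand, and Tef 193 with Gm17597, with the same limit on telling their reads apart. Tef (ENSMUSG00000022389, mm10 chr15:81802421-81826863, plus strand) was at 20.7 CPM in sitagliptin-labelled and 15 CPM in PBS-labelled keratinocyte-like cells, a ratio of 1.38 (1.26 to 1.51). Within the 5 classes the Tef ratio ran from 0.989 in basal-like to 1.16 in suprabasal-like cells, and each interval included 1. Outer root sheath or bulge-like cells, where Tef was highest, were 1738 of 17630 sitagliptin-labelled and 290 of 3814 PBS-labelled keratinocyte-like cells. The 6063 sitagliptin-labelled cells of no finer class, against 24 PBS-labelled ones, had Tef at 23.6 CPM. The part of these cells in the ratio over all keratinocyte-like cells was not tested.

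**Figure D3:**
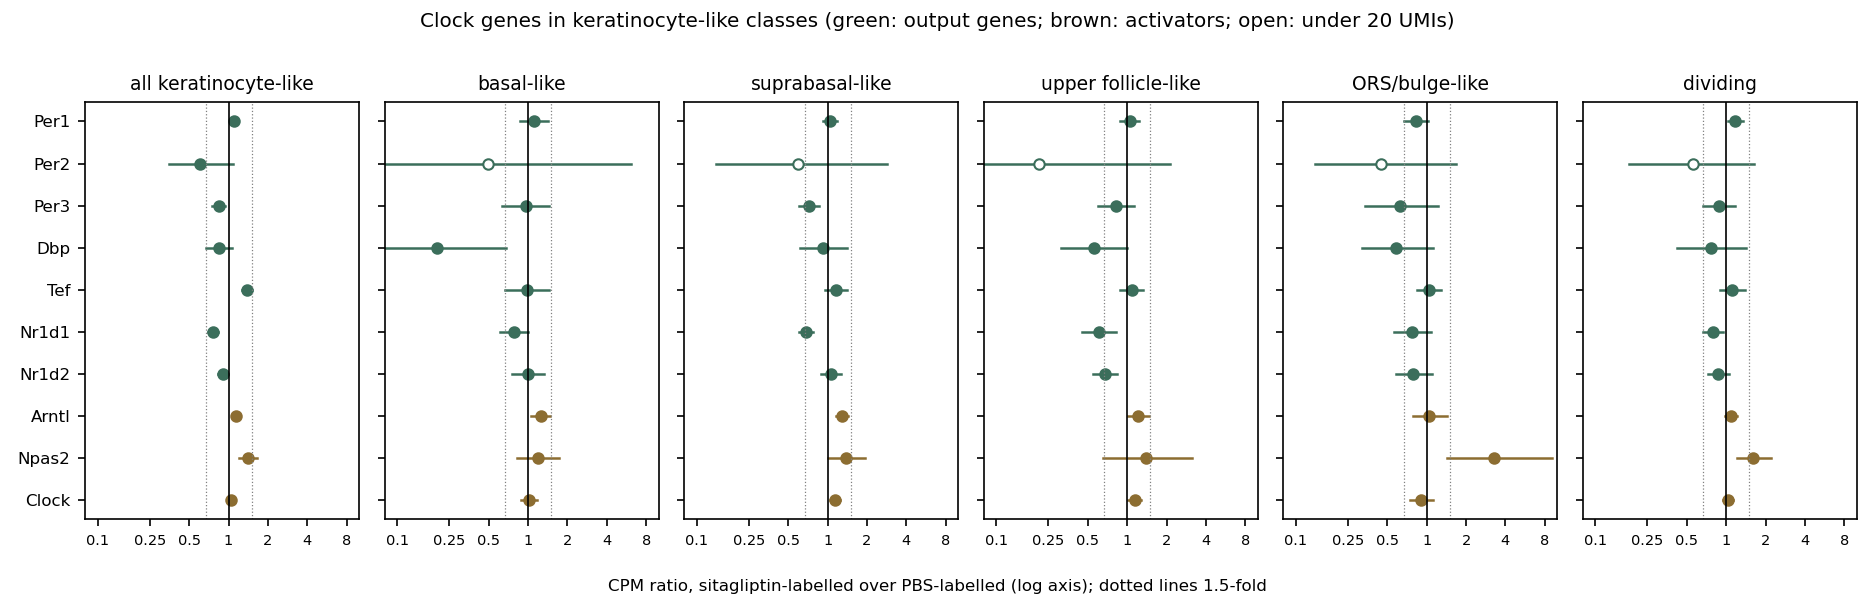
Ratio of CPM, sitagliptin-labelled over PBS-labelled (log axis), of each clock gene in all keratinocyte-like cells and in 5 classes, with exact 95% intervals that cover counting error only and are drawn no lower than the left edge of the axis. Open circles are genes with under 20 UMIs over both libraries in the class. Nr1d1 lies left of 1 and Npas2 right of 1 in each panel, but Npas2 lay left of 1 under 3 of 10 alternatives in basal-like and 2 of 10 in upper follicle-like cells, and Nr1d1 right of 1 under 1 of 10 in dividing cells.

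By the 1.5-fold rule, in each class 9 of the 10 members had at least 20 UMIs over both libraries, and Per2 did not. In basal-like cells 0 members were higher and 1 (Dbp) lower in the sitagliptin-labelled library, against 4.27% higher and 5.21% lower of all genes. In suprabasal-like cells 0 were higher and 0 lower, against 12.6% higher and 4.37% lower of all genes. In upper follicle-like cells 0 were higher and 2 (Dbp and Nr1d1) lower, against 5.2% higher and 4.02% lower of all genes. Dbp and Nr1d1 are both outputs of the clock, as are 6 of the 9 members measured in that class. In outer root sheath or bulge-like cells 1 (Npas2) was higher and 2 (Per3 and Dbp) lower, against 10.0% higher and 5.74% lower of all genes, and in dividing cells 1 (Npas2) was higher and 0 lower, against 5.89% higher and 5.31% lower. With 9 members measured, 1 member is 11.1% of them and 2 are 22.2%. The median ratio of the 7 outputs over all keratinocyte-like cells was 0.844 and that of the 3 activators 1.13, where all genes had a median of 1.0. In upper follicle-like cells the medians were 0.748 for 6 outputs and 1.22 for 3 activators, where all genes had 0.999. That output median was the lowest of the 5 classes. The output median was 0.977 in basal-like, 0.983 in suprabasal-like, 0.782 in outer root sheath or bulge-like and 0.874 in dividing cells. In suprabasal-like cells 3 of the 6 outputs lay above 1, and all genes had a median of 1.05. The activator median ran from 1.05 in outer root sheath or bulge-like to 1.29 in suprabasal-like cells.

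Summed, the activators lay higher in the sitagliptin-labelled cells. Arntl (ENSMUSG00000055116, mm10 chr7:113207465-113314126, plus strand), which encodes the shared partner BMAL1 and whose printed window holds a REV-ERB element, was at 53.6 CPM in sitagliptin-labelled and 42.9 CPM in PBS-labelled basal-like cells, a ratio of 1.25 (1.05 to 1.48). Suprabasal-like cells had 41.8 CPM in the sitagliptin-labelled and 32.4 CPM in the PBS-labelled library, a ratio of 1.29 (1.15 to 1.44). Upper follicle-like cells had 36.8 CPM in the sitagliptin-labelled and 30.1 CPM in the PBS-labelled library, a ratio of 1.22 (1.02 to 1.46). In outer root sheath or bulge-like and dividing cells the ratios were lower, at 1.05 in the first class and 1.09 in dividing cells, with intervals that included 1. Arntl lay above 1 in 7 of 10 clusters, with the interval above 1 in 4.

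Npas2 (ENSMUSG00000026077, mm10 chr1:39193731-39363236, plus strand), which encodes the alternative partner of BMAL1, was at 6.79 CPM in sitagliptin-labelled and 4.81 CPM in PBS-labelled keratinocyte-like cells, a ratio of 1.41 (1.2 to 1.66). In outer root sheath or bulge-like cells it had 88 UMIs (12.3 CPM) in the sitagliptin-labelled and 6 UMIs (3.77 CPM) in the PBS-labelled library, a ratio of 3.27 (1.44 to 9.14). Of the 88 UMIs, 29 came from the cluster led by Krt75, with 190 sitagliptin-labelled and 13 PBS-labelled cells. The Npas2 ratio was above 1 in each of the 8 clusters in which both libraries had a UMI, from 1.2 to 2.51. The interval lay above 1 in 1 of these 8. With each cell thinned to 1000 UMIs the ratio over all keratinocyte-like cells was 1.02, and in basal-like cells, where it was 1.2 (0.820 to 1.74), it lay below 1 under 3 of 10 alternatives. In upper follicle-like cells, with 20 UMIs in the sitagliptin-labelled and 12 UMIs in the PBS-labelled library, the alternatives ran from 0.245 to 4.35 and 2 of 10 lay below 1, so no direction can be read there. In outer root sheath or bulge-like cells they ran from 2.78 to 6.12. Clock (ENSMUSG00000029238, mm10 chr5:76209868-76304792, minus strand), which encodes a histone acetyltransferase, was at 67.1 CPM in sitagliptin-labelled and 64.3 CPM in PBS-labelled keratinocyte-like cells, a ratio of 1.04 (0.997 to 1.09). It was above 1 in 8 of 10 clusters, with the interval above 1 in 3. Its ratio was 1.14 in both suprabasal-like and upper follicle-like cells.

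Apart from the treatment, several members differed between classes of the same library by more than their counting intervals, and in the same way in both libraries. Tef was at 72 CPM in sitagliptin-labelled and 69.1 CPM in PBS-labelled outer root sheath or bulge-like cells, which was 7.50 times (5.54 to 10.4) its basal-like level in the sitagliptin-labelled and 7.13 times (5.23 to 9.77) in the PBS-labelled library. In the sitagliptin-labelled library upper follicle-like cells followed with 25.4 CPM, then suprabasal-like cells with 14.0 CPM, dividing cells with 11.1 CPM and basal-like cells with 9.60 CPM. In the PBS-labelled library upper follicle-like cells had 23.5 CPM, suprabasal-like cells 12.1 CPM, dividing cells 9.96 CPM and basal-like cells 9.70 CPM. The last 3 were not all apart. The intervals of dividing and basal-like cells overlapped in both libraries, as did those of suprabasal-like and basal-like cells. The suprabasal-like interval also overlapped that of dividing cells in the PBS-labelled library. Per1 followed a like order, at 58.7 CPM in outer root sheath or bulge-like, 39.4 CPM in upper follicle-like and 24.0 CPM in basal-like cells of the sitagliptin-labelled library, against 71.0 CPM in outer root sheath or bulge-like, 37.7 CPM in upper follicle-like and 21.5 CPM in basal-like cells of the PBS-labelled library.

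The other members had other orders. Nr1d1 was lowest among the keratinocyte-like classes in upper follicle-like cells, at 0.440 times (0.324 to 0.596) the basal-like level in the sitagliptin-labelled and 0.561 times (0.440 to 0.713) in the PBS-labelled library. Npas2 was also lowest there, at 0.215 times (0.122 to 0.365) the basal-like level in the sitagliptin-labelled and 0.183 times (0.0899 to 0.340) in the PBS-labelled library. In the PBS-labelled library the upper follicle-like interval overlapped that of dividing cells for Nr1d1 and that of outer root sheath or bulge-like cells for Npas2. Clock in upper follicle-like cells was 1.24 times (1.09 to 1.42) the basal-like level in the sitagliptin-labelled and 1.10 times (0.974 to 1.25) in the PBS-labelled library. Arntl was highest among the keratinocyte-like classes in basal-like cells, where the PBS-labelled interval overlapped those of dividing and of outer root sheath or bulge-like cells, with 0.686 times (0.579 to 0.813) that level in sitagliptin-labelled and 0.702 times (0.586 to 0.840) in PBS-labelled upper follicle-like cells. Sebocyte-like cells had Arntl at 12 UMIs (16.2 CPM) in the sitagliptin-labelled and 13 UMIs (14.5 CPM) in the PBS-labelled library, the lowest level among the 9 classes plotted. In the sitagliptin-labelled library its interval (8.35 to 28.2) overlapped those of T or innate lymphoid-like and fibroblast-like cells.

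Myeloid cells differed among themselves. The PBS-labelled cluster led by Ccl8 and C1qa, genes of tissue macrophages, had Arntl at 59.3 CPM (50.4 to 69.3) in 462 cells, and the PBS-labelled cluster led by Lyz2 and Ccr2, which has the antigen presentation genes H2-Aa and Cd74 among its 10 leading genes, had 19.1 CPM (14.7 to 24.4) in 585 cells. Clock was at 67.9 CPM in the Ccl8 cluster and 55.4 CPM in the Lyz2 cluster, and Nr1d1 at 10.4 CPM in the Ccl8 cluster and 13.1 CPM in the Lyz2 cluster, each with overlapping intervals. The sitagliptin-labelled library had 6 cells in the Ccl8 cluster and 40 in the Lyz2 cluster, too few to give a level.

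Among genes with a mean of at least 10 CPM, those most like Dbp and Arntl across classes were not clock genes. Over 18 points, 9 classes in each of 2 libraries, and 8860 genes with a mean of at least 10 CPM, the highest Pearson r of log2(CPM + 1) with Dbp were those of Sesn3 (0.85), Map2k7 (0.84) and Ccdc97 (0.82). With Arntl they were those of Emp1 (0.89), Marveld1 (0.87) and Anxa2 (0.87). Per2 (mean 0.967 CPM), Per3 (9.74), Npas2 (5.92) and Dbp (4.15) were under the limit of 10 CPM. These members could therefore not be among the leading genes. Dbp and Arntl themselves had r = -0.46, and Dbp with Tef had r = 0.22. Points of 1 library share its depth and points of 1 class share cell identity, and for Dbp many points rest on few UMIs.

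Other genes of the clock showed no common direction over all keratinocyte-like cells, where 8.39% of all genes were higher and 6.02% lower by the 1.5-fold rule. Of 6 other clock repressors 1 was at least 1.5-fold higher in the sitagliptin-labelled cells and 0 lower: Bhlhe41, which encodes DEC2, was at 1.32 CPM in the sitagliptin-labelled and 0.630 CPM in the PBS-labelled cells, and Nfil3, which encodes a protein that competes at D-boxes, was at 12.6 CPM in the sitagliptin-labelled and 8.43 CPM in the PBS-labelled cells. At the low end Bhlhe40 (DEC1) was at 13.4 CPM in the sitagliptin-labelled and 19.7 CPM in the PBS-labelled cells, a ratio of 0.681 (0.622 to 0.746). Cry2 was at 12.4 CPM in the sitagliptin-labelled and 14.0 CPM in the PBS-labelled cells. The ratios of Bhlhe40 and Cry2 were below 1 in each of the 5 classes. The higher levels of Bhlhe41 and Nfil3 were less marked within classes. The Bhlhe41 ratio was 1.18 in upper follicle-like and 1.05 in outer root sheath or bulge-like cells, with intervals that included 1. In the other classes Bhlhe41 had under 20 UMIs. The Nfil3 ratio ran from 0.848 in basal-like to 1.31 in suprabasal-like cells, and its interval lay above 1 in suprabasal-like cells alone. The part of the class mix in their ratios over all keratinocyte-like cells was not tested. The median of the measured repressors was 0.95 over all keratinocyte-like cells, and within classes ran from 0.79 in basal-like to 0.91 in dividing cells. Of the other activators and relatives 4 of 5 had at least 20 UMIs and 0 passed 1.5-fold, with Arntl2, a relative of Arntl, at a ratio of 0.820. Of 11 clock modifiers 0 passed 1.5-fold in either direction, and of 6 clock-controlled genes of several tissues also 0. The median ratio was 0.976 for the modifiers and 0.917 for the clock-controlled genes.

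**Figure D4:**
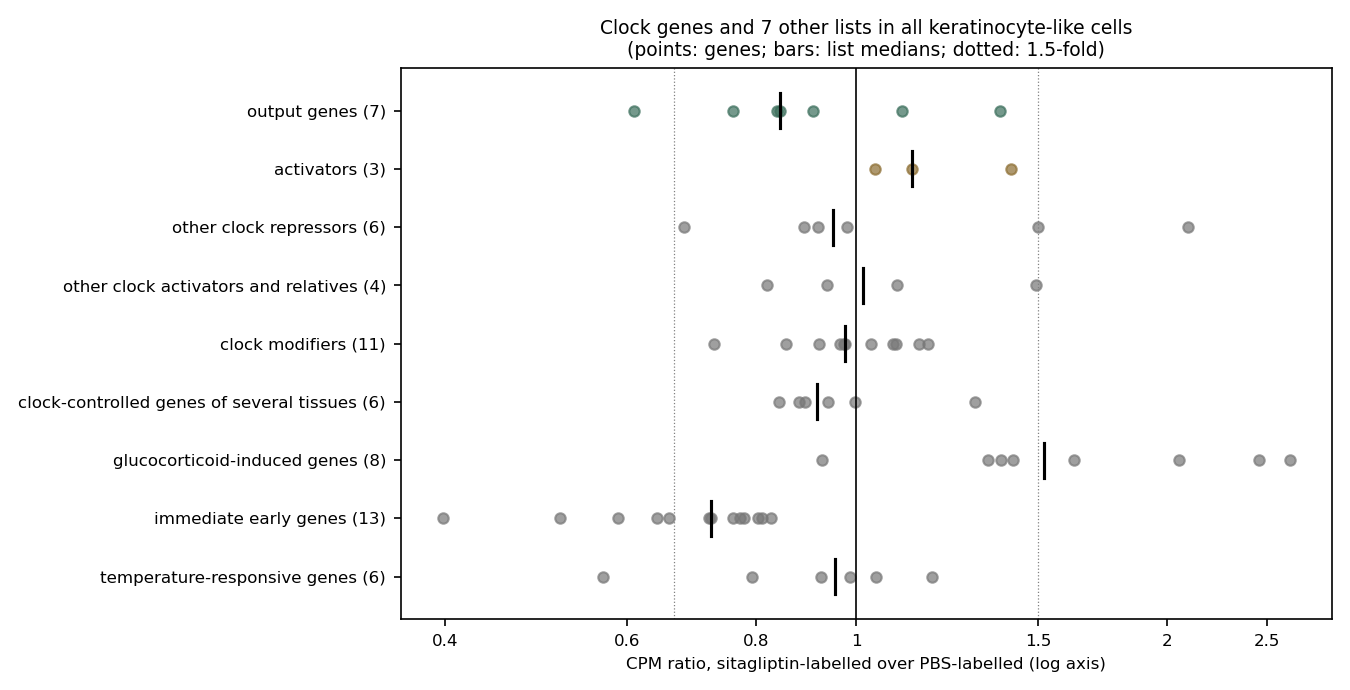
Ratio of CPM, sitagliptin-labelled over PBS-labelled (log axis), in all keratinocyte-like cells for each gene (points) of the clock outputs, the activators and 7 other lists, with list medians (bars) and 1.5-fold limits (dotted). Glucocorticoid-induced genes have a median of 1.52 and immediate early genes one of 0.725.

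Signals that can set clock genes were read beside them in the same cells. Of all genes with at least 20 UMIs in keratinocyte-like cells, 8.39% were higher and 6.02% lower by the 1.5-fold rule. Of 8 glucocorticoid-induced genes 4 were at least 1.5-fold higher in the sitagliptin-labelled keratinocyte-like cells and 0 lower, with a median ratio of 1.52. Fkbp5, which encodes a chaperone of the glucocorticoid receptor, was at 64.1 CPM in the sitagliptin-labelled and 24.4 CPM in the PBS-labelled cells, and Tsc22d3 (GILZ) at 155 CPM in the sitagliptin-labelled and 63.0 CPM in the PBS-labelled cells. At the low end of that list were Nfkbia, at a ratio of 0.926, and Klf9, at 1.34. Of 13 immediate early genes 0 were higher and 5 lower, with a median ratio of 0.725. In outer root sheath or bulge-like cells 12 of 13 were lower, against 5.74% of all genes. Of 6 temperature-responsive genes 0 were higher and 1 lower (Hspa1a, a ratio of 0.569). Hsph1, a heat-shock gene, had the highest ratio at 1.18, and the cold-induced Cirbp was at 62.0 CPM in the sitagliptin-labelled and 59.3 CPM in the PBS-labelled cells. Their part in the clock gene values was not tested, and treatment, library, dissection and time of day of sampling cannot be told apart with 1 library per treatment.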

How the data were processed

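Per the submitters' processing notes, Cell Ranger 3.1.0 and the mm10 genome were used. The authors deposited raw UMI counts for each gene in each barcode, and the strand setting of the counting and the cell-calling step are not given in the sources used here. Groups follow the treatment labels. The members, lists, filters and alternatives were chosen with earlier results of these data known.

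UMIs of both libraries were clustered together, without alignment, in scanpy 1.11.5 (counts scaled to 10000 per cell, 2000 variable genes with the clock genes left out, 30 principal components, 15 neighbours, Leiden resolution 1 with leidenalg 0.10.2, seed 1). Clusters were named from 21 marker lists. A name needed 3 markers detected in at least 10% of cells, no other broad type above 0.6 of its score, and a lead of 0.05 over the next class, a limit set after the data were seen, as was the dividing score of 0.5. Scrublet called 0 sitagliptin-labelled and 2 PBS-labelled doublets, so it did not work on these data and doublets were left in.

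UMIs were summed per class and library and given as CPM where a library had at least 50 cells, with Poisson intervals for levels, conditional binomial intervals for ratios and log-normal ones for output per activator. Precision is set by the gene's UMIs, which are printed where few. No test was made, since each treatment has 1 library. The named genes come from the 10 members and, of each other list, the 2 highest and 2 lowest ratios among genes with at least 20 UMIs. The genes that lead clusters were named outside that rule, after their values were seen. Ratios and intervals were tried on simulated counts with known ratios and counting error alone. The intervals assume the same error, so this says nothing of spread between cells, libraries or animals. Alternatives were the cell filter, the mitochondrial limit, the total behind CPM, averaging over cells, thinning, cluster resolution, variable genes, doublet scores, shared barcodes and equal weights for classes. Of the gene IDs, 31011 of 31053 matched GENCODE on mm10, which gave coordinates. Python 3.11.15, numpy 2.4.6, scipy 1.17.1, pandas 2.3.3 and matplotlib 3.10.9 were used.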

Additional observations from a re-analysis of the deposited data

How the results depend on the processing

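Output per activator over all keratinocyte-like cells was below 1 under each of the 13 other settings tried, and activators were above 1. Settings that change only the total behind CPM cannot move output per activator, so they add nothing for it. The summed outputs had an interval that included 1 and lay on either side of it. With at least 1000 genes and 2000 UMIs the output ratio was 0.943. With at most 5% mitochondrial UMIs it was 1.06 and the activator ratio 1.15, with 1 member higher and 0 lower by 1.5-fold, against 8.89% higher and 5.47% lower of all genes. With each cell's CPM averaged over cells 2 members were lower, against 6.41% of all genes. With cells thinned to 1000 UMIs 0 were lower in 1 draw and 1 (Nr1d1) in another draw that covered all genes, of which 4.93% were lower. As a geometric mean over named classes the output ratio was 0.902 and output per activator 0.809, with 1 member higher and 2 lower, against 5.87% and 7.04% of all genes. Over keratinocyte-like clusters, a setting added after the data were seen, the output ratio was 0.88 and output per activator 0.796, with 1 higher and 2 lower, against 4.09% and 8.38%. The causes were not tested. Of 581 values of single members under alternatives 529 stayed within their counting interval. In 48 the ratio lay on the other side of 1 from the value reported, over 26 combinations of member and class. In 2 of these the reported ratio was past 1.5-fold with at least 20 UMIs, both after thinning to 1000 UMIs: Per2 in keratinocyte-like cells at 1.08 and Dbp in outer root sheath or bulge-like cells at 1.11. Per3 in basal-like cells was below 1 under 5 of 10 settings and reached 2.01, and Arntl in dividing cells was below 1 under 2 of 10. Outer root sheath or bulge-like cells could not be had under 1 of the 10 settings that were recomputed per class, that of at most 5% mitochondrial UMIs. No paired analysis was possible because each treatment has 1 library. Per2 and Dbp are limited by their UMIs, and 44.5% of sitagliptin-labelled but 8.31% of PBS-labelled retained cells had under 2000 UMIs.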

Other observations

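The cluster led by Fam13a and Slc7a2 was left unnamed by the marker lists and entered none of the comparisons above. In 171 sitagliptin-labelled cells the outputs summed to 137 CPM and in 107 PBS-labelled cells to 205 CPM, with 1.5 output UMIs per activator UMI in the sitagliptin-labelled and 2.57 in the PBS-labelled cells, a ratio of 0.584 (0.385 to 0.887). Dbp was at 8 UMIs (10.7 CPM) in the sitagliptin-labelled and 19 UMIs (22.7 CPM) in the PBS-labelled cells, and Tef at 24.2 CPM in the sitagliptin-labelled and 46.6 CPM in the PBS-labelled cells. Lymphatic endothelial-like cells, with 50 cells in the PBS-labelled library alone above the minimum, had 2.87 output UMIs per activator UMI from 43 output and 15 activator UMIs. Both values rest on few UMIs.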
